A study of Mus musculus with 11 samples.

Results

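The ciliary kinesins described here are 8 genes, Kif3a, Kif3b, Kifap3, Kif17, Kif6, Kif27, Kif7 and Kif24, chosen by symbol from the 23074 genes of the count table. All 8 passed the filter on low counts and were tested with 15745 genes in all. RNA was sequenced from decapsulated whole testes of 5 wild type mice (WT, Rfx2+/+) and 6 Rfx2-/- mice at postnatal day 21 (P21), all on one mixed background of C57BL/6, 129/Sv and FVB/N, and the labels name no treatment. The Rfx2-/- allele lacks an exon that codes for most of the DNA-binding domain of the transcription factor RFX2, and since the deletion is carried in the germ line every cell type of the testis has it. WT mice are numbered 1 to 5 and Rfx2-/- mice 6 to 11, and each mouse is 1 library. P21 is a stage of the first wave of spermatogenesis with many pachytene spermatocytes and few round spermatids.

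Kinesins are motor proteins that walk along microtubules or take them apart at their ends. The kinesin-2 trimer of the motors Kif3a and Kif3b and the adaptor Kifap3 carries intraflagellar transport (IFT) trains from the base to the tip of cilia and flagella, Kif17 is a second kinesin-2 motor, and cytoplasmic dynein-2 brings the trains back. Kif6 belongs to the kinesin-9 family of motile cilia together with Kif9, and Kif27 and Kif7 are kinesin-4 proteins, of which Kif7 acts at the ciliary tip in Hedgehog signalling. Kif24 is a kinesin-13 that depolymerises microtubules and, with Ccp110, keeps the mother centriole from growing a cilium. In testis the same machinery serves the flagellum of spermatids, and RFX factors are known activators of cilia genes that bind the X-box, an imperfect inverted repeat in which each arm carries letters such as GTTGC.

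Promoter sequence was read for all 8 genes from RefSeq windows of build GRCm38.p6 that run from 250 bases before to 50 bases after the start site. One arm of the repeat, GTTNCC, searched on both strands, was found in 6 of the 8 windows and in 45.3% of all 32851 windows. The inverted repeat GTNNCC, 0 to 3 bases, GGNNAC was in none of the 8 and in 3.86% of all windows. The letters GTTGC on the gene's own strand, a search added after the data were seen and one that overlaps with GTTNCC, were in 6 of the 8 windows and in 20.2% of all. On both strands, as GTTNCC was searched, the Kif27 window also held GTTGC, and so did 35.2% of all windows. A close inverted pair of these letters, GTTGC, 0 to 3 bases, GCAAC, was present in the Kif17 window as GTTGCCCAGCAAC from base -73, and in 0.274% of all windows. The search for the inverted repeat above did not find this pair, because its second arm reads AGCAAC where that search asked for GGNNAC. The 110 bases before the RefSeq start are shown for Kif6 and Kif24, the members that passed the test between genotypes, and for Kif17 and Kif3b, whose windows hold the letters more than once. Capitals mark GTTGC or its reverse complement GCAAC, and every sequence is written 5′ to 3′ on the gene's strand.
Kif6, chr17:49615062-49615171, plus strand: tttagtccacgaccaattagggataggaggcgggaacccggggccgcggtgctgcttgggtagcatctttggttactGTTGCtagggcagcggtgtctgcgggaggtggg
Kif24, chr4:41464849-41464958, minus strand: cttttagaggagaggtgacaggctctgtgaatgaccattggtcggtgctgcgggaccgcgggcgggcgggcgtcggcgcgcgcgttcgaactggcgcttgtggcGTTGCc
Kif17, chr4:138262141-138262250, plus strand: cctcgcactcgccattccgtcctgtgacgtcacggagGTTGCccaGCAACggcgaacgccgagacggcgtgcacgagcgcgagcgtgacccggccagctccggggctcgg
Kif3b, chr2:153291306-153291415, plus strand: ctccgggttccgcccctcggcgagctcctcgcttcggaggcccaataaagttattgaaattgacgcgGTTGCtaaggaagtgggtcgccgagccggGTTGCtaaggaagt
Kif3b holds GTTGC from bases -43 and -14, Kif6 holds it once from base -33, and in Kif24 it starts at base -6, next to the start site. The RefSeq start of Kif17 lies 11816 bases inside the longest span that GENCODE gives the gene, and that of Kif27 lies 4175 bases inside, so that other start sites of these genes are outside the windows.

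The libraries held between 22232097 and 29769483 counts, and levels are given as CPM, in which counts are divided by library sizes that edgeR's TMM factors adjust. The floor of a library was set at 3 counts, or 0.0851 to 0.139 CPM, a limit for counting error alone. Library sizes without TMM factors shifted the median gene from a log2 fold change of -0.05 to one of -0.22, and all fold changes are relative to a shift of this size. Counts over the whole Rfx2 gene were 326 ± 118 CPM in the 5 WT mice and 304 ± 14.6 CPM in the 6 Rfx2-/- mice (SD). They do not check the genotype, because the deleted part is a single exon. The mice differed in germ cell markers. The mean log2 CPM of 10 round spermatid markers ran from -0.37 to 5.71 in WT and from 2.03 to 6.33 in Rfx2-/- mice, and that of 8 pachytene markers from 7.59 to 9.16 and from 9.06 to 9.48. WT replicates 3 and 5 were lowest in the pachytene score, at 7.81 and 7.59. Of 6 markers of the ciliated epithelium of the excurrent ducts, Mcidas was at 0 to 0.283 CPM in all mice. WT replicate 1 was highest in 4 of them, with 9.12 CPM of Krt18, 6.83 CPM of Pax8 and 13.03 CPM of Krt8 against at most 2.13, 1.56 and 5.08 CPM in any other mouse, and 79.5 CPM of Foxj1, close to the 76.8 CPM of Rfx2-/- replicate 7. Muc1 went the other way, at 25.2 CPM in WT replicate 1 and 33.0 to 45.0 CPM in the Rfx2-/- mice. The score of the 5 of these markers that were tested ran from 0.81 to 4.14 in WT and from 1.86 to 2.62 in Rfx2-/- mice.

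Between the genotypes, 1 of the 8 genes was lower and 1 was higher in Rfx2-/- testis at an adjusted p of at most 0.01 by edgeR's quasi-likelihood test. Kif6 fell about 4-fold and Kif24 rose by less than 2-fold. In the same fit 1.94% of all tested genes were lower and 0.730% were higher. The values of the genotypes did not overlap for Kif6, which was lower in all Rfx2-/- mice, or for Kif24, which was higher, and genes without overlap made up 5.20% of all genes in the lower and 6.50% in the higher direction. At an unadjusted p under 0.05, 1 member was lower and 2 were higher, against 23.7% and 18.1% of all genes. The median log2 fold change of the 8 genes was 0.31, with 2 below and 6 above 0, against a median of -0.05 over all tested genes. Kif27, close to 0, fell on the other side of it with total counts as library sizes.

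**Figure D1:**
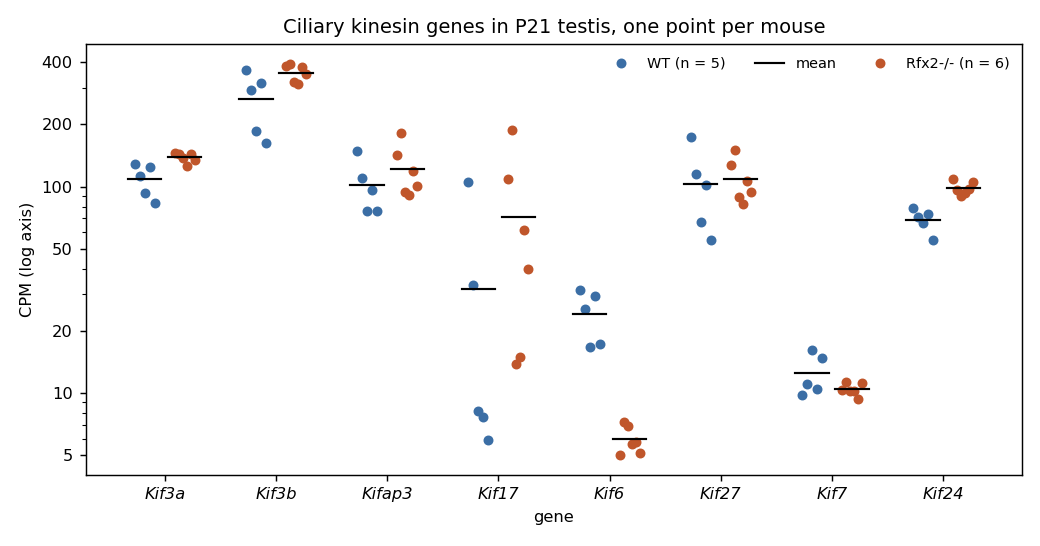
CPM of the 8 ciliary kinesin genes (log axis), one point per mouse, with the mean of each genotype as a bar. The genotypes separate for Kif6, at 16.7 to 31.6 CPM in WT and 4.99 to 7.22 CPM in Rfx2-/- mice, and for Kif24, while Kif17 spreads over more than 10-fold within each genotype.

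To compare levels between genes, CPM were divided by the merged exon length of each gene in kb (RPKM). In WT testis the order of mean RPKM levels was Kif3b at 47.2, Kif3a at 31.6, Kifap3 at 25.3, Kif27 at 20.1, Kif24 at 11.99, Kif17 at 7.97, Kif6 at 6.82 and Kif7 at 2.71. The ranges over mice of each gene and the next overlapped, except for Kif6 and Kif7. In Rfx2-/- testis Kif3b, Kif3a, Kifap3 and Kif27 kept the first places, at 63.2, 40.5, 30.3 and 21.1 RPKM. Kif17 at 17.8 and Kif24 at 17.1 followed, and Kif7 at 2.27 came before Kif6, which was last at 1.69 RPKM. There the ranges of neighbours overlapped except between Kif3b and Kif3a and between Kif24 and Kif7. The subunits of the trimer thus held the first 3 places of this order in both genotypes.

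Kif6 (ENSMUSG00000023999, chromosome 17 from 49615136 to 49909847, plus strand, GRCm38) was the member with a large difference. In order of replicate number, its level was 31.6, 25.5, 16.7, 29.3 and 17.2 CPM in the WT mice, from 547 to 897 reads. The Rfx2-/- mice had 4.99, 7.22, 6.93, 5.64, 5.78 and 5.13 CPM, from 118 to 175 reads. The highest Rfx2-/- mouse stayed below the lowest WT mouse. The means were 24.1 ± 6.84 CPM (SD, n = 5) and 5.95 ± 0.927 CPM (SD, n = 6), a level 4.04-fold lower in Rfx2-/- testis. The log2 fold change was -2.02 with a standard error of 0.19, a 95% interval from -2.44 to -1.60 and an adjusted p of 0.000148 from edgeR. By size of the fitted change it stood 100th of the 305 genes that were lower. Within WT, the 2 lowest mice in Kif6 were replicates 3 and 5, those with the lowest pachytene score. Without these 2 mice, an alternative added after the data were seen, the log2 fold change was -2.27 (edgeR adjusted p = 7.57e-06). With the pachytene score as a covariate, also added after the data were seen here and for the other members, it was -2.42, and with the round spermatid score -2.14 (edgeR adjusted p = 3.06e-07 and 6.67e-06). The pachytene score ran from 7.59 to 9.16 in WT and from 9.06 to 9.48 in Rfx2-/- mice, so that a fit with it hardly separates it from genotype. These 2 fits called 812 and 658 genes lower, against 305 without a covariate. Of the exon length of Kif6, 1.76% overlaps the antisense gene Gm16554, and whether the counting used strand is not given in the sources used here. In whole testis, fewer cells of a type and less RNA per cell cannot be told apart.

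Kif9 (ENSMUSG00000032489), the other kinesin-9 gene, had a mean of 254 ± 124 CPM in the 5 WT mice and 298 ± 52.6 CPM in the 6 Rfx2-/- mice (SD), with a log2 fold change of 0.23 (edgeR adjusted p = 0.572). Its WT values ran from 111 to 403 CPM and enclosed all Rfx2-/- values, from 240.1 to 378 CPM. The log2 ratio of Kif6 to Kif9 within a mouse does not depend on library scaling. It lay between -3.67 and -2.69 in WT and between -6.02 and -5.18 in Rfx2-/- mice, without overlap. The mean ratio was -3.28 ± 0.41 (SD, n = 5) and -5.62 ± 0.30 (SD, n = 6), a difference of -2.34 with p = 0.00433 by a two-sided exact permutation test, the smallest p that 5 against 6 mice can give (adjusted p = 0.00866 over 2 ratios of family members added after the data were seen). Kif6 thus fell relative to Kif9. The fall of Kif6 itself is part of this ratio, so that the ratio test is not independent of the Kif6 result.

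The tested genes whose course over the 11 mice was nearest to that of Kif6 were Zfp979, Dbndd1, Cyp2u1, Adam11 and the gene ENSMUSG00000070357, which has no symbol here. Likeness was measured as the root mean square difference of centred log2 CPM, which was 0.15, 0.16, 0.18, 0.18 and 0.20 for these genes and 1.04 for the median tested gene. Their own log2 fold changes lay between -2.21 for Cyp2u1 and -1.77 for ENSMUSG00000070357. The genotype difference of Kif6 is part of this measure, so that genes with a like fall come first.

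Kif24 (ENSMUSG00000028438, chromosome 4 from 41390745 to 41464887, minus strand), the brake on cilium growth at the mother centriole, was higher in Rfx2-/- testis. In the same order, its level was 78.4, 70.9, 66.5, 74.0 and 54.8 CPM in the WT mice. The Rfx2-/- mice had 108, 95.9, 89.8, 93.1, 97.4 and 105 CPM. All 6 Rfx2-/- mice were above all 5 WT mice. The means were 68.9 ± 9.002 CPM (SD, n = 5) and 98.2 ± 7.05 CPM (SD, n = 6), a 1.43-fold higher level (log2 fold change 0.51, standard error 0.09, 95% interval 0.32 to 0.71, adjusted p = 0.00644 from edgeR). It was 72nd by size among the 115 genes that were higher. The call lay close to the limit. It was lost in 8 of the 11 fits that left out 1 mouse, without WT replicate 2 or 3 or any one of the Rfx2-/- mice. In these 8 the edgeR adjusted p ran from 0.0114 to 0.0192, while the log2 fold change stayed between 0.45 and 0.56 over all 11 fits. Calls over all genes fell too, with 45 to 63 genes higher in these 8 fits against 115 with all mice. The fits that kept the Kif24 call had 81 to 192 genes higher. With the pachytene score as a covariate the log2 fold change of Kif24 was 0.33 (edgeR adjusted p = 0.0174), and this score itself was higher in Rfx2-/- mice, by 0.79 on the log2 scale. With the round spermatid score it was 0.43 (edgeR adjusted p = 0.00255), and without the 2 WT mice lowest in pachytene score 0.41 (edgeR adjusted p = 0.00530).

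Among the nearest genes to Kif24 over the 11 mice, by the same measure, were Tbc1d5, Chka and Cntrob. Their root mean square differences were 0.08 to 0.09 on the log2 scale against 0.43 for the median tested gene, and their log2 fold changes lay between 0.45 for Cntrob and 0.52 for Tbc1d5. Of 6 genes that work with Kif24 at the centriole cap, none was called by edgeR, 3 were higher at an unadjusted p under 0.05, and DESeq2 and voom each called 2, Ccp110 and Nek2, higher. Of all tested genes, 18.1% were higher at that p in edgeR, and DESeq2 and voom called 7.83% and 2.33% of theirs higher. Ccp110, the cap protein, had a mean of 627 ± 99.7 CPM in the 5 WT mice and 858 ± 45.8 CPM in the 6 Rfx2-/- mice (SD, log2 fold change 0.45, edgeR adjusted p = 0.0243). Nek2, a kinase known to phosphorylate Kif24, had a log2 fold change of 0.59 (edgeR adjusted p = 0.0374). Both genes are named after their values were seen.

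Of the kinesin-2 trimer, none of the 3 subunits passed the limit in edgeR, and all 3 fitted changes were above 0. Kif3a (ENSMUSG00000018395, chromosome 11 from 53567379 to 53601967), a motor subunit, came nearest. Its level was 129, 112, 93.4, 124 and 83.1 CPM in the WT mice, and the Rfx2-/- mice had 145, 144, 138, 126, 144 and 134 CPM. In 5 of the 6 Rfx2-/- mice it was above every WT mouse. The log2 fold change was 0.36 with a standard error of 0.11 and a 95% interval from 0.12 to 0.59 (edgeR adjusted p = 0.0492), and DESeq2's Wald test, which called 5.86% of its tested genes lower and 7.83% higher, called it at 0.39 (adjusted p = 0.00843). With the pachytene score as a covariate the log2 fold change of Kif3a was 0.078 (edgeR adjusted p = 0.328). That score ran from 7.59 to 9.16 in WT and from 9.06 to 9.48 in Rfx2-/- mice, so that this fit hardly separates it from genotype. All 8 of its markers had fitted changes above 0, and DESeq2 called Tbpl1 and Ccna1 higher and voom Ccna1.

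Kif3b (ENSMUSG00000027475, chromosome 2 from 153291413 to 153333390), the partner motor, was at 369, 295, 186, 317 and 162 CPM in the WT mice and at 382, 394, 320.4, 313, 378 and 349.6 CPM in the Rfx2-/- mice. The lowest values were those of WT replicates 3 and 5, and 3 of the 6 Rfx2-/- mice were above every WT mouse. Its log2 fold change was 0.42 (standard error 0.20, 95% interval -0.01 to 0.86, edgeR adjusted p = 0.126), and 0.13 without those 2 WT mice (edgeR adjusted p = 0.427). Kifap3 (ENSMUSG00000026585, chromosome 1 from 163779583 to 163917109), the adaptor of the trimer, ranged from 75.9 to 149 CPM in WT and from 90.5 to 181 CPM in Rfx2-/- mice. Its genotypes overlapped widely, with a log2 fold change of 0.26 (95% interval -0.23 to 0.75, edgeR adjusted p = 0.382), which was 0.11 without Rfx2-/- replicate 7 and 0.44 without WT replicate 1. Rfx2-/- replicate 7 was highest in Kifap3, and it was also highest in the round spermatid score.

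The balance of the subunits within a mouse did not pass a test either. The log2 ratio of Kif3a to Kif3b was -1.25 ± 0.25 (SD, n = 5) in WT and -1.36 ± 0.08 (SD, n = 6) in Rfx2-/- mice, a difference of -0.11 (two-sided exact permutation p = 0.307, adjusted p = 0.461 over 3 ratios). For Kif3a to Kifap3 the difference was 0.11 (exact permutation p = 0.528, adjusted p = 0.528). For Kif3b to Kifap3 it was 0.23 (exact permutation p = 0.169, adjusted p = 0.461), and 0.32 without Rfx2-/- replicate 7 (exact permutation p = 0.0397, not adjusted). These are ratios of CPM, not corrected for the lengths of the genes.

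**Figure D2:**
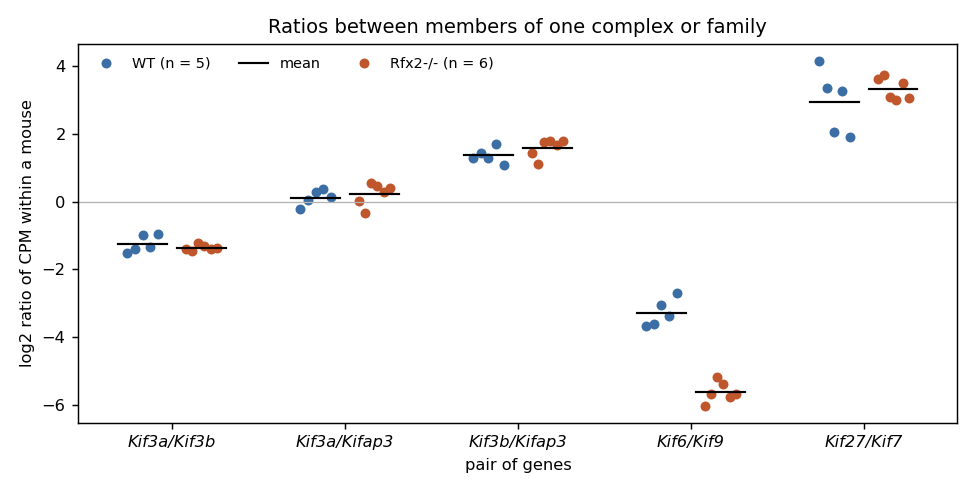
Log2 ratio of CPM between pairs of genes within each mouse, one point per mouse, with the mean of each genotype as a bar. The 3 ratios of kinesin-2 subunits overlap between genotypes, Kif6 to Kif9 lies at -3.67 to -2.69 in WT and -6.02 to -5.18 in Rfx2-/- mice, and Kif27 to Kif7 overlaps.

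Kif17 (ENSMUSG00000028758, chromosome 4 from 138250435 to 138301967) varied most among mice. Its level was 105, 33.1, 8.15, 7.60 and 5.88 CPM in the WT mice, and the Rfx2-/- mice had 109, 187, 13.8, 14.97, 61.4 and 39.6 CPM. The highest mouse was 17.9-fold above the lowest in WT and 13.6-fold in Rfx2-/- mice, and the genotypes overlapped. The log2 fold change was 1.16 with a standard error of 0.91 (edgeR adjusted p = 0.339). Its 95% interval from -0.85 to 3.16 holds changes in both directions, so that only a large change could have passed the test. Its value depended on single mice, at 2.38 without WT replicate 1 and 0.58 without Rfx2-/- replicate 7 (edgeR adjusted p from 0.0483 to 0.646 over the 11 fits). The 3 highest mice in Kif17, Rfx2-/- replicates 7 and 6 and WT replicate 1, were the 3 with the highest round spermatid scores, at 6.33, 5.39 and 5.71. The 3 lowest, WT replicates 5, 4 and 3, had the 3 lowest scores, at -0.37, 1.53 and 0.97. With this score as a covariate the log2 fold change was 0.18 (edgeR adjusted p = 0.487). The mean log2 CPM of 8 elongating spermatid markers moved in the same way, at 5.88, 4.05 and 5.95 in these 3 highest mice and -1.44, 0.095 and 0.12 in these 3 lowest. Of the duct markers, Krt18, Pax8 and Krt8 were also highest in WT replicate 1 but Muc1 and Mcidas were not, and their part in its Kif17 level was not tested. Of the exon length of Kif17, 1.85% is shared with Sh2d5 on the same strand.

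In spermatids Kif17 is known to move the coactivator Fhl5 (ACT) of the transcription factor Crem. Neither partner was called by edgeR, DESeq2 or voom, or passed an unadjusted p of 0.05. Fhl5 was highest in the same 3 mice as Kif17, with 28.0 CPM in Rfx2-/- replicate 7, 22.9 CPM in WT replicate 1 and 9.65 CPM in Rfx2-/- replicate 6. It was at 0.0314 CPM in WT replicate 5, which is below the floor. Crem had a log2 fold change of 0.52 (edgeR adjusted p = 0.148).

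**Figure D3:**
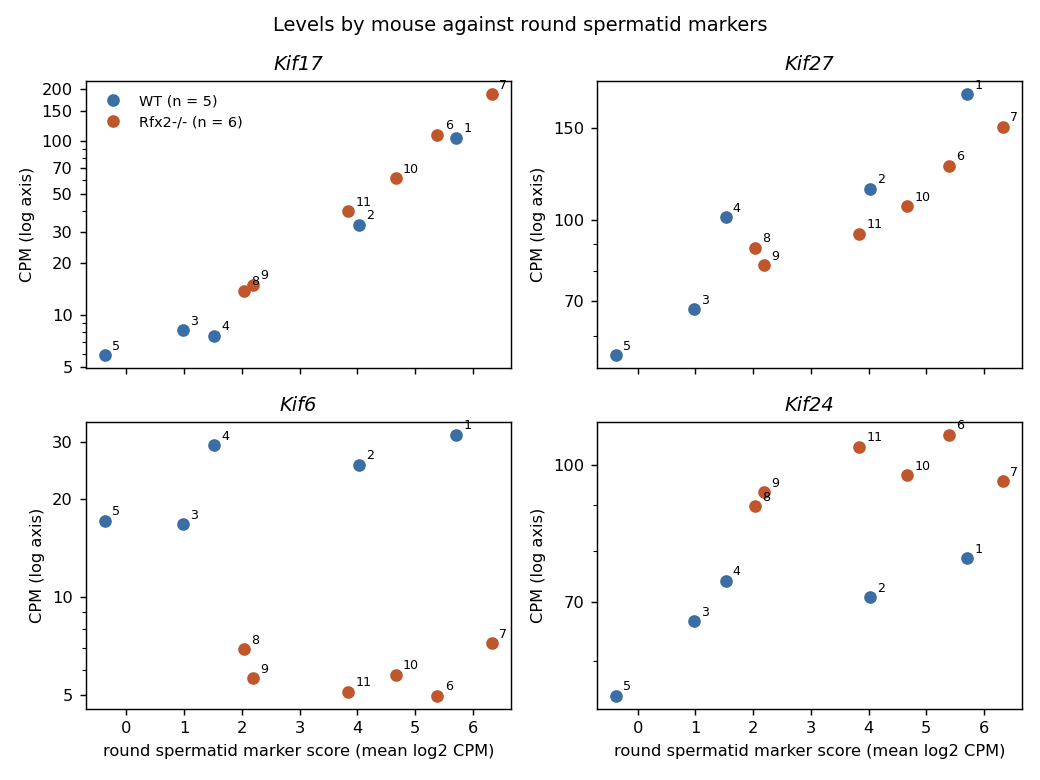
CPM of Kif17, Kif27, Kif6 and Kif24 in each mouse (log axis) against the mean log2 CPM of 10 round spermatid markers, with the replicate number beside each point. Kif17 runs from 5.88 CPM in the mouse with the lowest score to 187 CPM in that with the highest in one course for both genotypes, whereas Kif6 and Kif24 lie on separate levels in WT and Rfx2-/- mice.

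The kinesin-4 genes showed no difference that passed the test. Kif27 (ENSMUSG00000060176, chromosome 13 from 58287502 to 58359122, minus strand) ranged from 55.2 to 174 CPM in WT and from 82.0 to 151 CPM in Rfx2-/- mice, so that the WT values enclosed the others. Its highest mice were WT replicate 1 and Rfx2-/- replicate 7, which had the 2 highest round spermatid scores. The log2 fold change was 0.076 (95% interval -0.53 to 0.69, edgeR adjusted p = 0.842), and -0.59 with the pachytene score as a covariate (edgeR adjusted p = 0.0270). The sign of this small value changed in 8 of the 21 alternative fits. Kif7 (ENSMUSG00000050382, chromosome 7 from 79698098 to 79715720, minus strand) was the least abundant member in WT. It was at 16.1 and 14.7 CPM in WT replicates 3 and 5, at 9.75 to 11.1 CPM in the other WT mice and at 9.30 to 11.2 CPM in Rfx2-/- mice. The 2 WT mice low in pachytene score were thus those high in Kif7. Its log2 fold change was -0.25 (95% interval -0.55 to 0.05, edgeR adjusted p = 0.175) and 0.0082 without these 2 mice (edgeR adjusted p = 0.971). Of the Kif7 exon length, 19.1% overlaps the antisense gene 9330171B17Rik, and for Kif27 6.48% overlaps Gm26555, so that without strand some reads cannot be assigned. The log2 ratio of Kif27 to Kif7 differed by 0.39 between genotypes (two-sided exact permutation p = 0.346, adjusted p = 0.346 over 2 ratios).

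Of 7 genes listed as Hedgehog partners of Kif7, a list that includes Stk36, none was called by edgeR. At an unadjusted p under 0.05, 3 were lower and 2 higher, and DESeq2 and voom each called 1, Stk36, higher. At that p 23.7% of all genes were lower and 18.1% higher in edgeR. DESeq2 called 5.86% of its tested genes lower and 7.83% higher, and voom 4.33% and 2.33%. Stk36 (Fused), a kinase-like protein that binds Kif27 in motile cilia, had a mean of 85.2 ± 35.5 CPM in the 5 WT mice and 177 ± 35.6 CPM in the 6 Rfx2-/- mice (SD, log2 fold change 1.06, edgeR adjusted p = 0.0253). Stk36 is named after its values were seen. The median of the 7 was -0.43, and marker lists of some somatic cells and of spermatogonia had medians of like size. These were -0.36 for 8 Sertoli cell, -0.51 for 7 Leydig cell, -0.44 for 5 endothelial and -0.44 for 6 macrophage genes. For 8 spermatogonia genes, which mark germ cells, the median was -0.42. That of 5 peritubular myoid genes was -0.066. Among later germ cells it was -0.049 for 8 leptotene and zygotene and -0.18 for 8 elongating spermatid genes. It was positive for the pachytene (0.53) and round spermatid lists. Of these markers edgeR called Hsd3b1 lower (log2 fold change -0.86, edgeR adjusted p = 0.00126), DESeq2 and voom each called Hsd3b1 and Lhcgr lower, and DESeq2 also Wt1. The part of these cells in the Hedgehog values was not tested.

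In the rest of the kinesin superfamily, 38 of 40 genes were tested and Kif28 and Kif12 were too low. None was called by edgeR, with 9 lower and 14 higher at an unadjusted p under 0.05, against 23.7% and 18.1% of all genes. DESeq2, which called 5.86% of its tested genes lower and 7.83% higher, called 1 of these lower, Kif5c. It called 9 higher, Kif22, Klc2, Kif20b, Kifc3, Kifc2, Kif15, Cenpe, Kifc5b and Kif2c. Voom with quality weights, which called 4.33% of all genes lower and 2.33% higher, called 3 higher, Klc2, Kifc3 and Kifc2, and called Kif6 and Kif24 in their directions. The median log2 fold change of the 38 genes was 0.03, with 17 below and 21 above 0 and a range from -0.62 for Kif1a to 1.02 for Kif2b, whose standard error was 1.26. Kifc3, a motor that walks to the minus end, had a mean of 53.7 ± 16.7 CPM in the 5 WT mice and 91.0 ± 9.62 CPM in the 6 Rfx2-/- mice (SD, log2 fold change 0.76, edgeR adjusted p = 0.0268), and was called without WT replicate 1, as Kif20b was without WT replicate 4. These genes are named after their values were seen.

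The cargo of the kinesin-2 motors was measured in the same libraries. Of 18 IFT-B genes, 2 were higher and none lower in edgeR, against 0.730% and 1.94% of all tested genes. The 2 were Ift74 and Ift81, whose products pair in the IFT-B core and bind tubulin. Ift74 was at 127 to 217 CPM in WT and 330.1 to 425 CPM in Rfx2-/- mice (log2 fold change 1.10, standard error 0.16, edgeR adjusted p = 0.00182). Ift81 was at 67.9 to 113 CPM and 154 to 217 CPM (log2 fold change 1.01, standard error 0.15, edgeR adjusted p = 0.00258). Neither overlapped between genotypes, which held for 6.50% of all genes in the higher direction. DESeq2 and voom called Ift74, Ift81 and Ift46 higher, and voom called Ift27 lower. DESeq2 called 7.83% of its tested genes higher, and voom called 2.33% higher and 4.33% lower. The median of the 18 genes was 0.18. None of 6 IFT-A genes was called by edgeR, DESeq2 or voom, with 3 higher at an unadjusted p under 0.05 and a median of 0.27. None of 5 genes of dynein-2, the return motor, was called by any of the 3 tools or passed an unadjusted p of 0.05, with a median of 0.07. Of 9 BBSome genes, whose products ride on IFT trains, edgeR called none, 3 were lower and 2 higher at an unadjusted p under 0.05, DESeq2 called Ttc8 lower and voom Bbs2, Bbs7 and Ttc8 lower. At that p 23.7% of all genes were lower and 18.1% higher in edgeR, and DESeq2 and voom called 5.86% and 4.33% lower.

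**Figure D4:**
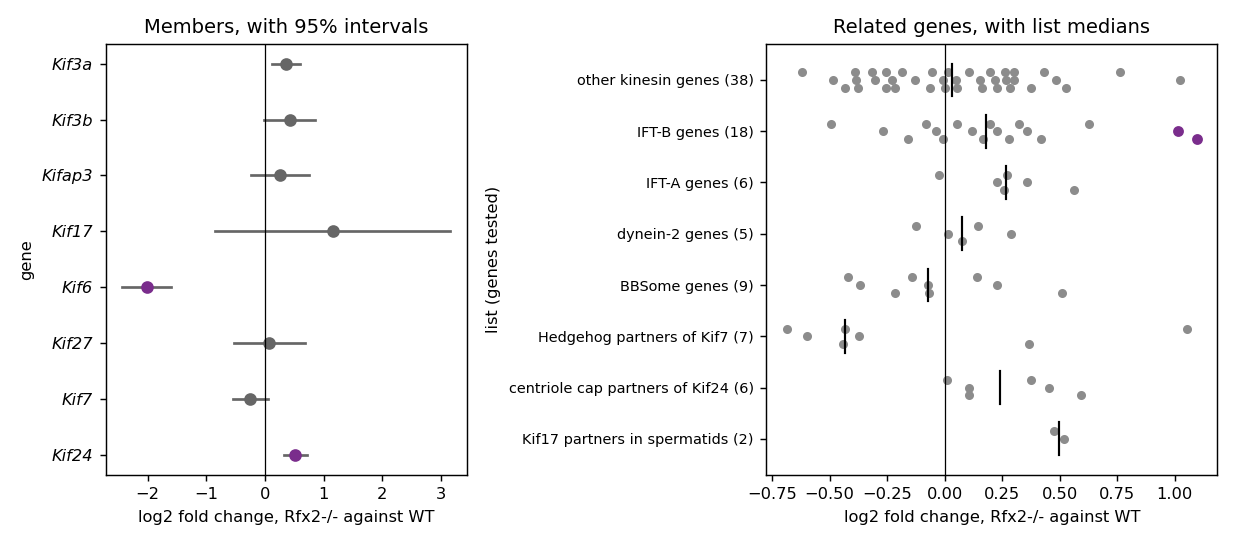
Log2 fold changes of Rfx2-/- against WT testis from edgeR, for the 8 ciliary kinesins with 95% intervals (left) and for each tested gene of the related lists with the list median as a bar (right). Purple points passed an adjusted p of 0.01, which are Kif6 at -2.02, Kif24 at 0.51, Ift81 at 1.01 and Ift74 at 1.10.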

How the data were processed

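RNA-Seq counts of 11 mouse testes at P21 were analysed (5 WT, 6 Rfx2-/-). The authors made single-read TruSeq libraries, mapped reads to GRCm38 and counted uniquely mapped reads on merged exons per gene, leaving out reads on exons of different genes. CASAVA 1.8.2, STAR 2.4 and featureCounts 1.4.6 are in the submitters' processing notes, while one part of the methods names another aligner and read length. The deposited values are raw counts, not normalized. Labels give each mouse its genotype, and the mice are described as independent animals.

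The genotypes were compared by edgeR 4.0.16 under R 4.3.3 (filterByExpr, TMM, glmQLFit and glmQLFTest, no covariates), and Benjamini-Hochberg adjustment ran over all 15745 tested genes with a limit of 0.01. Alternatives were DESeq2 1.42.0 (Wald), limma 3.58.1 (voom with quality weights), DESeq2 size factors or total counts as library sizes in edgeR, a robust prior, no filter, a mean count of at least 50, marker scores as covariates, other limits, and each mouse left out in turn. Tests were tried on simulated data. The members and all gene lists were chosen with earlier results of these data known. The rule for named genes took the members, list genes past the limit and the 5 genes nearest to each called member, of which a few are not reported here. Other genes of the lists, markers included, were named after their values were seen. Log2 CPM for scores, ratios and likeness used a prior count of 2. Exon lengths and positions come from GENCODE M21, promoters from RefSeq, matched by symbol for 8 of 8 members. Plots and exact tests used Python 3.11.15, pandas 2.3.3, SciPy 1.17.1 and matplotlib 3.10.9.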

Additional observations from a re-analysis of the deposited data

How the results depend on the processing

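Kif6 was lower in all 11 fits that left out a mouse (log2 fold change -2.11 to -1.90) and in all 10 other fits (-2.42 to -1.99). The number of members called lower was 1 throughout. The number called higher was 2, Kif24 and Kif3a, with DESeq2's Wald test, at an unadjusted p of at most 0.01 and at an adjusted p of at most 0.05, 0 with the pachytene score as a covariate, and 0 to 1 with single mice left out. DESeq2 called 5.86% of its tested genes lower and 7.83% higher. The fit with the pachytene score called 812 genes lower and 126 higher of 15745. At an unadjusted p under 0.05 the shares were 23.7% and 18.1%. With single mice left out, edgeR called 184 to 393 genes lower and 45 to 192 higher. Shares of all genes at an unadjusted p of at most 0.01 and at an adjusted p of at most 0.05 were not computed. The member counts at those limits thus have no background. The count of other kinesins called higher was 0 to 1 with single mice left out. With the pachytene score as a covariate the signs of Kif3b (-0.084), Kifap3 (-0.22), Kif17 (-0.50), Kif27 (-0.59) and Kif7 (0.094) turned, with the round spermatid score those of Kifap3 (-0.044) and Kif27 (-0.23), and in the 9 mice without WT replicates 3 and 5 those of Kif27 (-0.26) and Kif7 (0.0082). Kif27 was also below 0 with total counts as library sizes (-0.055) and voom (-0.073), and ranged from -0.068 to 0.35 with single mice left out, where it was -0.068, -0.031 and -0.042 without WT replicate 5, WT replicate 3 and Rfx2-/- replicate 7. None of these turned values passed the limit. With single mice left out, the ratio of Kif3a to Kif3b ranged from -0.18 to -0.044, that of Kif3a to Kifap3 from 0.027 to 0.22 and that of Kif3b to Kifap3 from 0.16 to 0.32. The cause of these changes was not tested, and the fits that leave mice out also have fewer mice. No paired analysis was possible because the replicate numbers of the genotypes are not shared. The members had 118 to 10475 reads per mouse.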
